A study of Mus musculus with 8 samples.

Results

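The interleukin 1 system is described here through 5 genes: the agonists Il1a and Il1b, the receptor antagonist Il1rn, the signalling receptor Il1r1 and the decoy receptor Il1r2. All probe sets that the platform annotation assigns to these symbols were taken. They number 6 of 12488 on the array, 1 for each gene but Il1r2, which has 2, and the 5 genes stand among 8252 named genes. Total RNA of mouse olfactory mucosa, the nasal lining that carries the olfactory neurons, was measured on 8 expression arrays. Every animal, controls included, had lost both olfactory bulbs, the target of those neurons. The 4 groups of 2 arrays were C57BL/6 wild type after carrier, C57BL/6 wild type after CCL3 (also called MIP-1a), Ccl3-/- after carrier and Ccl3-/- after CCL3. CCL3 is a chemokine that draws in macrophages and other leukocytes, and the series asks how it acts on macrophage entry after target removal. The sources used here do not state the mice's age, the dose, the site of injection or the time to dissection. Nothing says that the replicates came from separate animals or pools, so each p-value reflects the scatter among these arrays alone, and that scatter may be technical.

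Interleukin 1 is an early alarm cytokine. Its agonist forms, interleukin 1 alpha and interleukin 1 beta, bind the receptor encoded by Il1r1, which recruits an accessory chain (Il1rap) and signals through the adaptor MyD88 and IRAK kinases to NF-kappaB. Il1rn encodes a soluble antagonist that occupies the same receptor without signalling, and Il1r2 encodes a receptor without a signalling domain that captures the ligands. Il1r2 is known for high expression in neutrophils and some macrophages, Il1b for expression in activated myeloid cells, and Il1a and Il1rn also for expression in epithelia. Il1a and Il1b are neighbours on mouse chromosome 2, where Il1rn also lies. Il1r2 and Il1r1 are neighbours on chromosome 1.

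RefSeq start-site windows (GRCm38.p6, 250 bases before to 50 after each start) were available for all 5 genes, 8 windows in all. The windows of Il1r2 and of the first listed start of Il1rn are shown because the results turn on these genes. Capitals mark the E-box letters CACGTG in Il1r2, at chr1:40085843-40086142 on the plus strand, and the AP-1 letters TGANTCA in Il1rn, at chr2:24336610-24336909 on the plus strand.
Il1r2: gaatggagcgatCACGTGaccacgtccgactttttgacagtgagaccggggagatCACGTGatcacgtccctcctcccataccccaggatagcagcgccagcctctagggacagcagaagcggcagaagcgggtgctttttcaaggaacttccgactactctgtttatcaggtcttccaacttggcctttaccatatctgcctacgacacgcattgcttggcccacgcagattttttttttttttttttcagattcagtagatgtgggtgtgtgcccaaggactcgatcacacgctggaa
Il1rn: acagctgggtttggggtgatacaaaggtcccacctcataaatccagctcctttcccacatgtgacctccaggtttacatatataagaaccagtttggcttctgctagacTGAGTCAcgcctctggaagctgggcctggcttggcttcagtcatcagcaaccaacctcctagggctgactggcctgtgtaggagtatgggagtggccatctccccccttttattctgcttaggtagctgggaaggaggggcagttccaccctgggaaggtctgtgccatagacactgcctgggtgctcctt
CACGTG stood at -238 to -233 and at -195 to -190 from the Il1r2 start and in none of the other member windows. Over all 32851 RefSeq windows, 7.15% held it. TGANTCA stood at -141 to -135 from this Il1rn start and at -12 to -6 from the Il1a start, against 7.81% of all windows. TATAAA stood at -32 to -27 of Il1a and at -31 to -26 of Il1b, and its reverse complement at 15 to 20 of a further Il1rn start, against 13.6% of all windows. An NF-kappaB motif (GGGA, any base, then TTTCC) was in none of the 8 windows and in 0.411% of all windows. Both strands were searched, CACGTG reads the same on both, and none of these matches overlap. A match describes the letters only.

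Values are the authors' linear intensities. The median per array lay between 581.4 and 660.3. Testing required a value over 362.7, the 40th percentile of the table, on at least 2 arrays. This left 8150 probe sets, among them 4 of the 6 for these genes. Differences are on the scale of log2(value + 102.3), which understates those of dim genes. At an adjusted p of 0.05 in limma, 0 of 8150 probe sets (0%) passed in each of the 5 comparisons, the lowest adjusted p being 0.332. At an unadjusted p under 0.05 the counts ran from 121 to 932 of 8150. The Ccl3 probe set read 727.3 to 812.2 on the arrays labelled Ccl3-/- and 159.4 to 386.5 on wild-type arrays, against the direction of the genotype label. The extent of the deletion is not stated in the labels, so the probe set may check nothing, and every genotype direction below rests on the labels. Wild-type carrier replicate 1 stood apart in its ratio of 3' to 5' Gapdh signal, 2.59 against 0.755 to 1.31 on the other 7 arrays. For the named genes whose values it moves most, the values without it are given. Of the tissue markers, Omp, the olfactory marker protein of mature olfactory neurons, read 4251.1 to 21778.7. All 4 neuron markers on the array, of 12 listed, exceeded 362.7 on every array.

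The decoy receptor gene Il1r2 was highest on the carrier arrays labelled Ccl3-/- and lowest on the CCL3 arrays with that label, by both of its probe sets. By the first of these (suffix at), the carrier arrays labelled Ccl3-/- read 888.8 and 866.9, the wild-type carrier arrays 736.1 and 602.8, the wild-type CCL3 arrays 406.2 and 471.2, and the CCL3 arrays labelled Ccl3-/- 207.1 and 332. The 4 groups did not overlap by this probe set, and both CCL3 groups lay under both carrier groups. The share of all tested probe sets with such an order was not counted, so these values describe the probe set only. By the other (suffix f_at), the carrier arrays labelled Ccl3-/- read 1314.5 and 1058.2, the wild-type CCL3 arrays 458.7 and 604.6, the wild-type carrier arrays 598.4 and 375.2, and the CCL3 arrays labelled Ccl3-/- 257 and 323.6. Here the wild-type groups overlapped each other and the outer groups stood clear of them. That suffix marks a probe set that can detect related sequences, and it carries no accession in the annotation, while the first does.

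On the arrays labelled Ccl3-/-, Il1r2 was lower after CCL3 than after carrier. Group means were 269.6 ± 88.3 (SD, n = 2) against 877.8 ± 15.5 by the first probe set, and 290.3 ± 47.1 against 1186 ± 181 by the f_at probe set. In limma the log2 differences were -1.42 ± 0.30 (SE; adjusted p = 0.722) and -1.71 ± 0.31 (SE; adjusted p = 0.722), or 2.67-fold and 3.28-fold lower on this scale. They ranked 5 and 2 among 8150 probe sets by p, and neither passed the threshold. Both were lower in all alternative settings that tested them, 18 and 19 in number, between -0.98 and -1.74 and between -1.24 and -2.03. The 2 CCL3 arrays lay under all 6 others by both probe sets, which held for 1.99% of all tested probe sets.

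After carrier injection, the probe sets of Il1r2 differed in how far the genotypes lay apart. Arrays labelled Ccl3-/- were higher by 0.35 ± 0.30 (SE, n = 2 per group; limma adjusted p = 0.634) by the first probe set and by 1.15 ± 0.31 (limma adjusted p = 0.363) by the f_at probe set. After CCL3 the arrays labelled Ccl3-/- were at -0.56 ± 0.30 and -0.69 ± 0.31 against wild type, with an adjusted p of 1 in limma for each. In the wild type, CCL3 against carrier gave -0.51 ± 0.30 and 0.12 ± 0.31, so the probe sets took opposite signs there. Leaving out wild-type carrier replicate 2 turned that positive value to -0.15, and leaving out wild-type CCL3 replicate 2 to -0.04. With wild-type carrier replicate 1 left out, the values were -0.38 and 0.40. The interaction, the CCL3 difference under the Ccl3-/- label minus that under wild type, was -0.91 ± 0.42 and -1.84 ± 0.44, each at an adjusted p of 0.908 in limma, and -1.03 and -2.11 without that array.

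**Figure D1:**
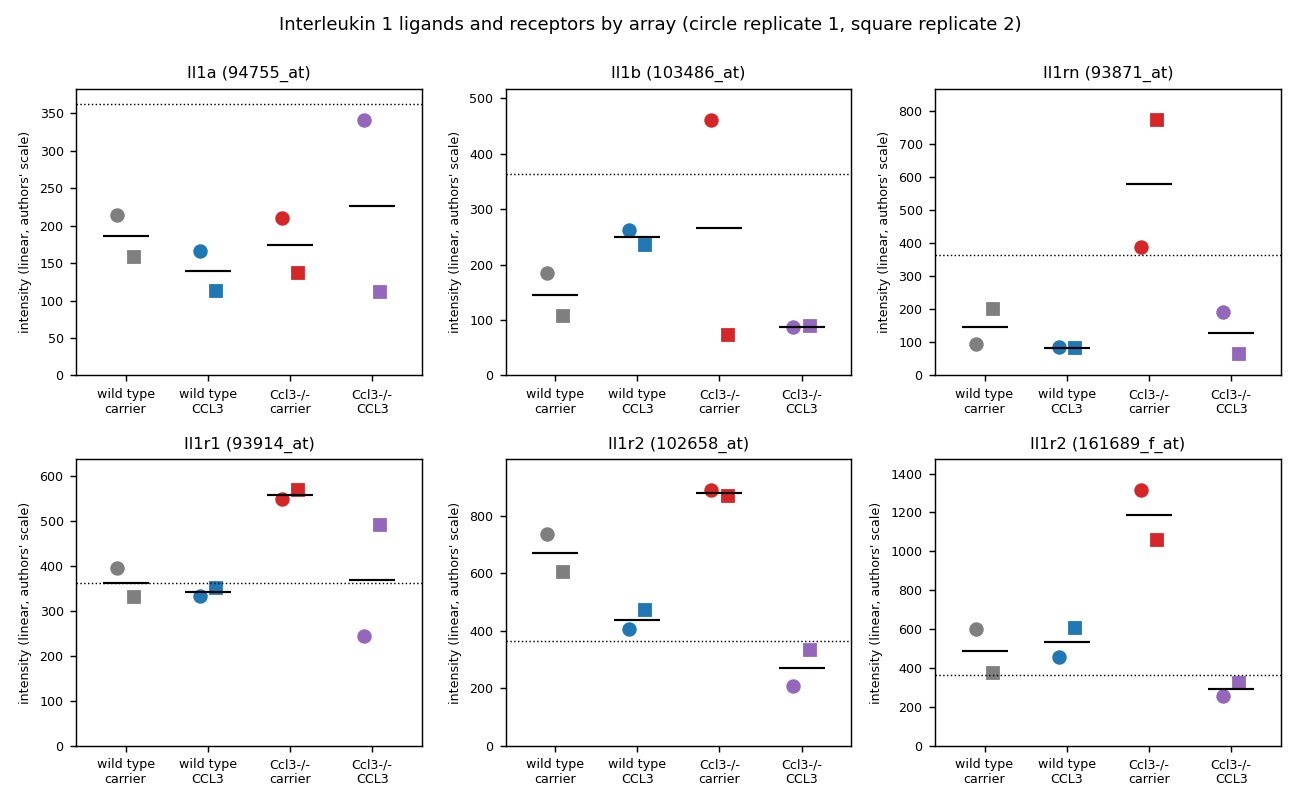
Intensity of each interleukin 1 probe set (linear, y axis from 0) on 8 arrays in 4 groups (x axis). Points are arrays, bars are group means and the dotted line is the filter value of 362.7. Both Il1r2 probe sets are highest on the carrier arrays labelled Ccl3-/- and lowest on the CCL3 arrays with that label, and the Il1b values of the carrier arrays labelled Ccl3-/- lie far apart at 461 and 72.1.

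The signalling receptor gene Il1r1 varied less. The carrier arrays labelled Ccl3-/- read 548.8 and 568.4, the CCL3 arrays with that label 243.9 and 491.2, the wild-type carrier arrays 395.8 and 330 and the wild-type CCL3 arrays 332.5 and 350.1. The carrier arrays labelled Ccl3-/- lay above the other 6, while the CCL3 arrays with that label spanned the whole wild-type range. The highest array was 2.33-fold above the lowest, against 4.29-fold and 5.11-fold for the Il1r2 probe sets. Arrays labelled Ccl3-/- were higher by 0.51 ± 0.35 (SE, n = 2 per group) after carrier and by 0.03 ± 0.35 after CCL3. CCL3 minus carrier gave -0.54 ± 0.35 under the Ccl3-/- label and -0.07 ± 0.35 under wild type. No Il1r1 difference passed in limma, with adjusted p from 0.56 to 1.

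The antagonist gene Il1rn read 386.6 and 772.3 on the carrier arrays labelled Ccl3-/- and less on every other array. Wild-type carrier arrays read 94.2 and 200.6, wild-type CCL3 arrays 84.4 and 84, and CCL3 arrays labelled Ccl3-/- 191 and 65.8. The last 3 groups overlapped or lay within their spread of each other, and all their values were under 362.7. Il1rn passed the filter only through the group in which it was high, so its place above the other 6 arrays describes the choice as well as the gene. After carrier, arrays labelled Ccl3-/- were higher by 1.42 ± 0.49 (SE, n = 2 per group; limma adjusted p = 0.394), 2.68-fold on this scale. CCL3 minus carrier under the Ccl3-/- label gave -1.56 ± 0.49 (limma adjusted p = 0.83). In the wild type it gave -0.39 ± 0.49, and the interaction was -1.17 ± 0.70 (limma adjusted p = 0.908). After CCL3 the genotypes were 0.25 ± 0.49 apart, and -0.15 without CCL3 replicate 1 labelled Ccl3-/-.

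The agonist genes were dim and were not tested. Il1b exceeded 362.7 on 1 array, carrier replicate 1 labelled Ccl3-/-, at 461, while replicate 2 of that group, at 72.1, was the lowest of all 8. Wild-type CCL3 arrays read 262.1 and 235.7, wild-type carrier arrays 184.3 and 106.4, and CCL3 arrays labelled Ccl3-/- 87.6 and 88.4. The wild-type CCL3 arrays therefore lay above wild-type carrier and above CCL3 arrays labelled Ccl3-/-, and the carrier group labelled Ccl3-/- spanned them all. Without the filter, Il1b was at -0.88 ± 0.48 (SE, n = 2 per group; limma adjusted p = 1) on arrays labelled Ccl3-/- against wild type after CCL3, and at 0.36 ± 0.48 after carrier. CCL3 minus carrier gave 0.52 ± 0.48 in the wild type and -0.72 ± 0.48 under the Ccl3-/- label, and the interaction was -1.24 ± 0.68 (limma adjusted p = 0.9).

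Il1a stayed under 362.7 on all 8 arrays. It read 214.7 and 158.1 on wild-type carrier arrays, 165.5 and 112.4 on wild-type CCL3 arrays, 210.8 and 136.6 on carrier arrays labelled Ccl3-/-, and 341.3 and 110.9 on CCL3 arrays with that label. All 4 groups overlapped. Without the filter its log2 differences lay between -0.26 ± 0.39 and 0.43 ± 0.55 (SE) over the 5 comparisons (limma adjusted p of 0.9 or more in each).

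Set together, the members did not share one order of groups. Il1r1 and both probe sets of Il1r2 had the carrier arrays labelled Ccl3-/- above the other 6 arrays, which held for 4.43% of all tested probe sets. Il1rn did too, but only those arrays took it past the filter. Over the 8 arrays, Pearson's r was 0.50 between Il1rn and Il1r1, 0.70 and 0.75 between Il1r1 and the Il1r2 probe sets, 0.56 and 0.65 between Il1rn and those, and 0.87 between the Il1r2 probe sets. Il1b had r of 0.36 and 0.53 with the Il1r2 probe sets and -0.11 with Il1rn, and Il1a had r of 0.05 with its neighbour Il1b. These correlations share 8 arrays in 4 groups and are a description. Il1rn is set aside in the counts that follow, since the group in which it was high chose it. All members were chosen with earlier results of these data known, so these counts are a description too. At an unadjusted p under 0.05 in limma, 1 of the other 3 tested probe sets, the f_at probe set of Il1r2, was higher on arrays labelled Ccl3-/- after carrier, against 5.03% of all probe sets. For CCL3 minus carrier under the Ccl3-/- label, both Il1r2 probe sets, 2 of 3, were lower, against 2.12%. For the interaction 1 of 3 was below 0 at that level, against 1.87%. For genotype after CCL3 and for CCL3 in the wild type it was 0 of 3 in limma, against 1.48% and 4.29% in either direction. For genotype after carrier, the log2 differences without wild-type carrier replicate 1 were 1.11 for Il1rn, 0.61 for Il1r1, and 0.48 and 1.43 for the probe sets of Il1r2. Il1r1 for CCL3 in the wild type then took the other sign, at 0.04.

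**Figure D2:**
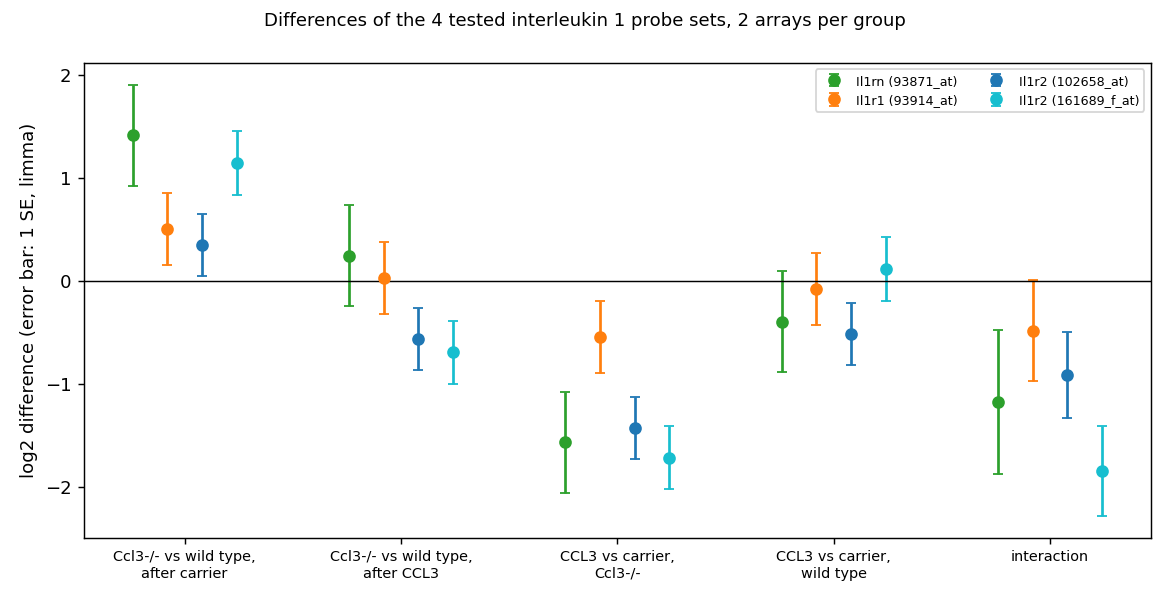
Log2 difference (y axis, with 1 SE from limma) of the 4 tested interleukin 1 probe sets in 5 comparisons (x axis), with 2 arrays in each group. For CCL3 minus carrier under the Ccl3-/- label all 4 points lie below 0, from -0.54 to -1.71, as did 46% of all tested probe sets. In the wild type the 4 points lie between -0.51 and 0.12. Of the 4, 2 are probe sets of Il1r2, and Il1rn passed the filter only through the carrier arrays labelled Ccl3-/-.

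The genes whose log2 values ran most like a member over the 8 arrays were taken by the highest Pearson's r among tested, named probe sets. For Il1r2 by the first probe set they were the neutrophil chemoattractant gene Cxcl1 (r = 0.949), Gm4788 (0.945), the small GTPase gene Rab31 (0.934), the tumour necrosis factor receptor gene Tnfrsf1b (0.928) and the adhesion molecule gene Vcam1 (0.928). For the f_at probe set they were Lilr4b, a leukocyte immunoglobulin-like receptor gene (0.938), Dpm1 (0.929), Gas5 (0.929), Acsl4 (0.926) and the integrin gene Itgav (0.926), so the probe sets of Il1r2 shared no gene among their first 5. For Il1rn they were Cnbp (0.945), Ahsg (0.928), Psmd4 (0.924), Tnfrsf11b (0.921) and Tmpo (0.918). For Il1r1 they were Wbp1l (0.968), the odorant receptor gene Olfr1509 (0.950), Dazap2 (0.931), Sfpq (0.927) and Zbtb16 (0.913). With 8 arrays and 8150 probe sets to choose from, such values describe these arrays only.

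The rest of the interleukin 1 family was mostly dim. Of 15 listed relatives 5 were on the array. Il1rap, the accessory chain of the receptor, read 17.8 to 244.4, the cytokine gene Il18 read 99.1 to 321.6, and its receptor genes Il18r1 and Il18rap read 75.4 to 310.4 and 52.5 to 270, all under 362.7 on every array. Il18bp, which encodes a soluble inhibitor of interleukin 18, was the 1 tested relative, at 385.8 to 797.8, with 0.45 ± 0.29 (SE, n = 2 per group; limma adjusted p = 0.911) for CCL3 against carrier in the wild type. Casp1, the protease that matures interleukin 1 beta, read 48.8 to 162. Of 13 listed genes for processing and release, 5 genes with 7 probe sets were tested, and in limma none passed an unadjusted p of 0.05 in any comparison. P2rx7, the ATP receptor that triggers release, was at -0.41 ± 0.24 (limma adjusted p = 0.515) on arrays labelled Ccl3-/- after carrier. The calpain gene Capn1, whose product can cleave the alpha precursor, was at 0.36 ± 0.32 for CCL3 minus carrier under the Ccl3-/- label. S100a13, which takes part in release of the alpha form, was at 0.54 ± 0.32, 0.52 ± 0.34 and 0.31 ± 0.25 by its 3 probe sets for genotype after CCL3.

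Genes of the signalling cascade lay close to the rest of the array. Of 29 listed, 19 genes with 24 probe sets were tested. Their median log2 difference was between -0.09 and 0.05 over the 5 comparisons, beside -0.03 to 0.04 for all probe sets. Irak1, a kinase that acts next to the receptor, was at -0.80 ± 0.27 (SE, n = 2 per group; limma adjusted p = 0.391) on arrays labelled Ccl3-/- after carrier and at -0.44 ± 0.27 after CCL3. After carrier it was the 1 signalling probe set of 24 that limma put lower with an unadjusted p under 0.05, against 6.4% of all probe sets. Without wild-type carrier replicate 1 it was at -0.60 and missed that level. The adaptor gene Myd88 read 891.8 to 1511.8, with -0.01 ± 0.28 for genotype after carrier and -0.26 ± 0.28 for CCL3 minus carrier under the Ccl3-/- label. That first value was 0.04 when each array was scaled to one median. For genotype after CCL3, the kinase gene Map3k7 was at 0.42 ± 0.30 and the NF-kappaB subunit gene Relb at -0.69 ± 0.34. For CCL3 minus carrier under the Ccl3-/- label, Relb was at -0.78 ± 0.34 (limma adjusted p = 0.94), the 1 signalling probe set of 24 lower with an unadjusted p under 0.05, against 2.12% of all probe sets. The p38 kinase gene Mapk14 was at 0.33 ± 0.25 for CCL3 minus carrier under the Ccl3-/- label. In the wild type, Mapkapk2 was at -0.71 ± 0.38 by one probe set and at 0.18 ± 0.27 by another. For the interaction, the probe sets of Map2k3 were at 0.56 ± 0.37 and 0.16 ± 0.36, and those of Tollip, an inhibitor of IRAK signalling, at 0.51 ± 0.46 and 0.23 ± 0.37. None of these passed in limma over all probe sets.

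Most tested genes known to be induced by interleukin 1 had their higher means on the carrier arrays labelled Ccl3-/-, and none passed an adjusted p of 0.05 in limma. Of 30 listed targets 27 were on the array and 17, with 21 probe sets, were tested. The list was chosen with earlier results of these data known, so the counts that follow are a description and no independent test. For CCL3 minus carrier under the Ccl3-/- label, 19 of 21 were lower, against 46% of all probe sets, with a median of -0.79 beside 0.03. In limma 9 of the 21, from 7 genes, had an unadjusted p under 0.05, against 2.12% of all probe sets lower at that level, and 0 passed an adjusted p of 0.05. For genotype after carrier, 18 of 21 were higher, against 47.9%, with a median of 0.62 beside -0.03, and 5 had an unadjusted p under 0.05 in limma, against 5.03%. Without wild-type carrier replicate 1, these counts were 20 and 7. Both comparisons use the carrier arrays labelled Ccl3-/-, so they are not independent. For genotype after CCL3, 18 of 21 were lower, against 47.2%, with a median of -0.15, and for CCL3 in the wild type 11 were lower, against 51.8%, with a median of -0.06. The interaction was below 0 for 19 of 21, against 47.3%, with a median of -0.77.

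Some of these probe sets passed the filter only through the carrier arrays labelled Ccl3-/-. With the filter applied to the other 6 arrays alone, 18 target probe sets remained among 7955. After CCL3 on the arrays labelled Ccl3-/-, 16 were lower (median -0.66 beside 0.04 for all, 7 at an unadjusted p under 0.05 in limma). After carrier, 15 were higher (median 0.59 beside -0.03 for all, 4 at that level). Shares of all probe sets were counted only under the main filter. They were 46% lower and 2.12% lower at that level, and 47.9% higher and 5.03% higher at that level. The arrays of the wild-type carrier group differed. Saa3, an acute phase gene, read 3563 and 341.8 there, 3241.5 and 4742.8 on carrier arrays labelled Ccl3-/-, 31.9 and 638.5 on wild-type CCL3 arrays and 74.8 and 333.5 on CCL3 arrays labelled Ccl3-/-. Wild-type carrier replicate 1, the array with the high Gapdh ratio, was thus as high as the carrier arrays labelled Ccl3-/-. Cxcl1, by the first of its probe sets, read 1014.2 and 367.9 on wild-type carrier arrays, 1005.3 and 1067.1 on carrier arrays labelled Ccl3-/-, 288.9 and 481.4 on wild-type CCL3 arrays and 62.4 and 324.3 on CCL3 arrays labelled Ccl3-/-. It showed the same split between the wild-type carrier arrays.

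For CCL3 minus carrier under the Ccl3-/- label, Saa3 was at -3.86 ± 0.97 (SE, n = 2 per group; limma adjusted p = 0.722). Cxcl1 was at -2.10 ± 0.52 and -1.73 ± 0.62 by its probe sets. The collagenase gene Mmp13 was at -2.11 ± 0.57. Socs3, a feedback inhibitor of cytokine signalling, was at -1.14 ± 0.30 and -1.12 ± 0.30, and Nfkbia, the inhibitor that NF-kappaB itself induces, at -0.79 ± 0.42 and -0.67 ± 0.32. After carrier, Socs3 was higher on arrays labelled Ccl3-/- by 1.16 ± 0.30 (limma adjusted p = 0.363) and 0.56 ± 0.30, and Nfkbiz, which encodes a nuclear IkappaB protein, by 0.62 ± 0.24. Saa3 was at 1.66 ± 0.97 there, Cxcl1 at 0.65 ± 0.52 and 0.95 ± 0.62, and Nfkbia at 0.50 ± 0.42 and 0.18 ± 0.32. Leaving out wild-type carrier replicate 1 moved Saa3 to 3.18, Cxcl1 to 1.28 and 1.89, Nfkbia to 1.21 and 0.55, and Socs3 to 1.47 and 0.90. The Nfkbia values were -0.21 and -0.19 without wild-type carrier replicate 2. Other values fell too when 1 array was left out. The lowest were 0.14 for Saa3, 0.03 and 0.02 for Cxcl1, and 0.84 and 0.23 for Socs3. In the wild type, CCL3 against carrier gave -1.45 ± 0.54 (limma adjusted p = 0.911) for the protease gene Mmp3 and 0.64 ± 0.33 for the chemokine gene Cxcl5. Mmp3 was at -0.77 without wild-type carrier replicate 1. The interaction was -1.23 ± 0.43 and -0.67 ± 0.43 for the probe sets of Socs3 and -1.33 ± 0.56 for the adhesion molecule gene Icam1. Il6, a cytokine induced by interleukin 1, and Ptgs2, the inducible cyclooxygenase gene, were dim, at 18.2 to 286.4 and 32.1 to 184.

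**Figure D3:**
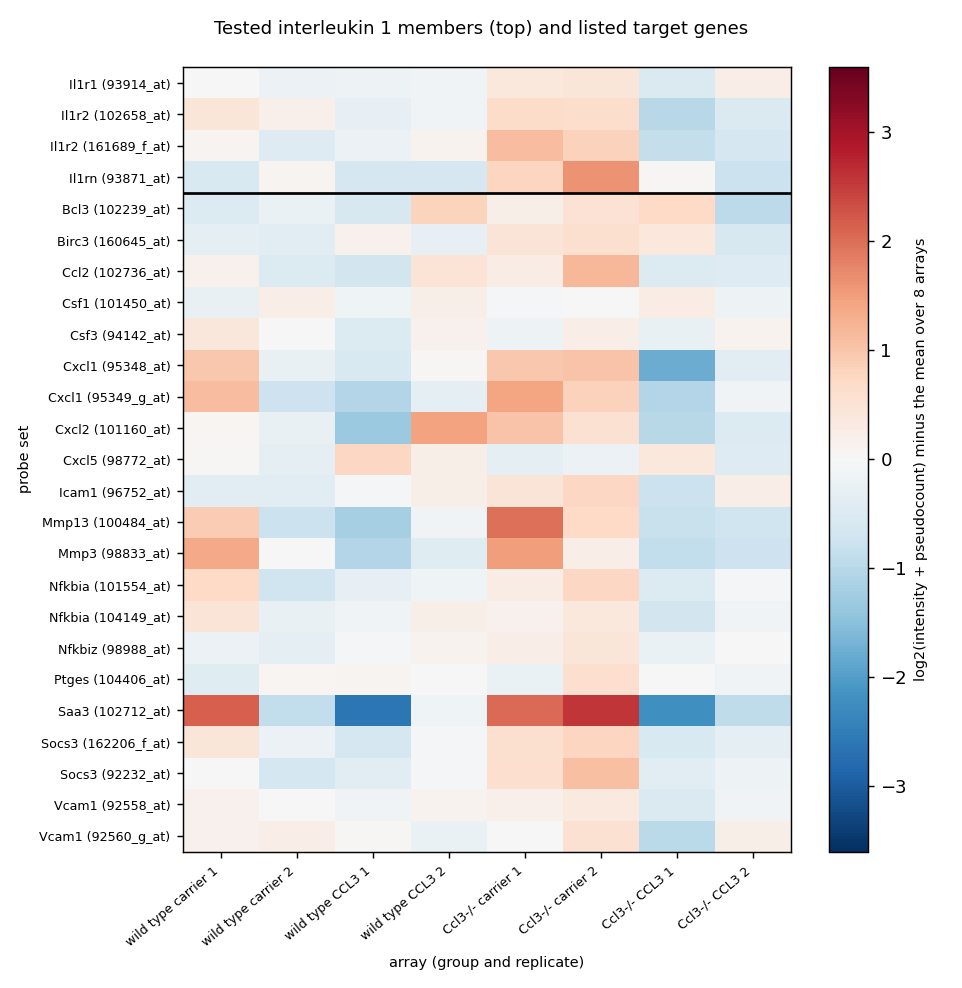
Colour gives log2(intensity + 102.3) minus the mean over 8 arrays for the tested interleukin 1 members (top 4 lines) and the 21 tested target probe sets (below the black line), with arrays as columns. The carrier arrays labelled Ccl3-/- are mostly above the mean, and wild-type carrier replicate 1 is above it for Saa3, Mmp13 and Cxcl1 while replicate 2 is below.

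Neutrophils express Il1r2, and the full sum of their markers shared part of its order of groups, being highest on the carrier arrays labelled Ccl3-/-. The summed intensity of the 17 markers on the array, of 20 listed, was 128500 and 179500 on carrier arrays labelled Ccl3-/-, 98230 to 118200 on CCL3 arrays with that label, 94640 to 103700 on wild-type carrier arrays and 99680 to 106500 on wild-type CCL3 arrays. No marker was at 0, and 8 to 13 of the 17 exceeded 362.7 on each array. Ltf and Lcn2, which glands and epithelia also make, carried most of the sum. Without them, the sum was 20150 and 37640 on carrier arrays labelled Ccl3-/-, 18130 and 42090 on CCL3 arrays with that label, 12830 and 18130 on wild-type carrier arrays and 11820 and 14830 on wild-type CCL3 arrays. This sum, chosen after the values were seen, therefore overlapped between carrier and CCL3 on the arrays labelled Ccl3-/-, where Il1r2 did not overlap. S100a8, the brightest marker after Ltf and Lcn2, averaged 11730 ± 8167 (SD, n = 2) on carrier arrays labelled Ccl3-/-, 6502 ± 3240 on CCL3 arrays with that label, 3926 ± 3646 on wild-type carrier arrays and 2147 ± 99.2 on wild-type CCL3 arrays. Camp and Mpo, which encode granule proteins of neutrophils, went the other way for CCL3 minus carrier under the Ccl3-/- label. They were at 1.36 ± 0.60 and 1.17 ± 0.59 (SE; limma adjusted p = 0.94 for each), where S100a8 was at -0.74 ± 0.68. Under that label Camp read 2400.4 and 3698.3 after carrier and 17005.3 and 3545.6 after CCL3. Mpo, by its tested probe set, read 70.8 and 508.5 after carrier and 870.8 and 450.3 after CCL3. S100a8 read 17507.3 and 5957.6 after carrier and 8792.5 and 4210.8 after CCL3. Carrier and CCL3 arrays thus overlapped for each of these genes. For CCL3 minus carrier under that label, 7 of 13 tested neutrophil probe sets had higher means and 6 lower, against 46% of all probe sets lower. Their median was 0.20 beside 0.03 for all. Under the Ccl3-/- label, 8 of 13 were higher than wild type after carrier (median 0.33 beside -0.03), against 47.9% of all probe sets. After CCL3, 9 of 13 were higher and 4 lower (median 0.62 beside 0.02), against 47.2% of all probe sets lower. After carrier and after CCL3, the granule gene Ngp was at 2.42 ± 0.53 and 2.81 ± 0.53 and Camp at 1.26 ± 0.60 and 2.36 ± 0.60. S100a8 was at 1.74 ± 0.68 and 1.46 ± 0.68. The Il1r2 probe sets were below 0 for genotype after CCL3. The part of neutrophil content in the Il1r2 and Il1rn differences was not tested. In whole tissue, fewer cells of a type and less RNA per cell cannot be told apart.

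Macrophages and stratified epithelium can also express members. Summed macrophage markers, 17 of 19 listed, read 41110 and 45880 on carrier arrays labelled Ccl3-/-, 43800 and 45350 on CCL3 arrays with that label, 35740 and 45720 on wild-type carrier arrays and 43230 and 43380 on wild-type CCL3 arrays. All groups overlapped the range of wild-type carrier by this sum. Of 16 tested macrophage probe sets, 8 were higher on arrays labelled Ccl3-/- after carrier, against 47.9% of all probe sets. In limma 3 were lower there with an unadjusted p under 0.05, against 6.4%, and 0 were higher, against 5.03%. For CCL3 minus carrier under the Ccl3-/- label, 7 of 16 were lower, against 46%. The part of macrophage content in the results on Il1r2, Il1r1 and Il1rn was not tested. Keratinocyte markers, 17 of 18 listed, summed to 24910 and 34690 on carrier arrays labelled Ccl3-/- and to 33580 and 34800 on CCL3 arrays with that label, against 24300 to 34120 on wild-type arrays. Sprr1b was the brightest of these by its probe set with suffix r_at, at 12226.5 to 25374.9, which entered the sum. That probe set went opposite to Il1r2, at 0.99 ± 0.25 (SE; limma adjusted p = 0.722) for CCL3 minus carrier under the Ccl3-/- label. The other probe set of Sprr1b read 8.9 to 247 and was not tested. Without Sprr1b, a sum chosen after the values were seen, the epithelial markers read 12440 and 22460 on carrier arrays labelled Ccl3-/-, 8205 and 10990 on CCL3 arrays with that label, 9382 and 10390 on wild-type carrier arrays and 6996 and 14910 on wild-type CCL3 arrays. By this sum the carrier and CCL3 arrays labelled Ccl3-/- did not overlap, while by the full sum they did. In that comparison 9 of 14 tested probe sets of the list had lower means, against 46% of all probe sets. The median was -0.53 beside 0.03 for all. Among the 9 were Sprr1a at -1.36 ± 0.83, Sfn at -0.77 ± 0.44 and the wound keratin gene Krt6a at -1.79 ± 0.84 and -1.43 ± 0.74. Krt17 was at -0.69 ± 0.44, -0.73 ± 0.44 and 0.30 ± 0.29 by its 3 probe sets. The 5 with higher means were that last one, Sprr1b, Krt4 at 0.33 ± 0.30, Krt6b at 0.28 ± 0.30 and Krt10 at 0.24 ± 0.31. The part of epithelial content in the Il1r2 and Il1rn differences was not tested. Red cell markers, 6 of 9 listed, summed to 85270 and 90770 on the CCL3 arrays labelled Ccl3-/-, where Il1r2 was lowest, against 36450 to 58670 on the other 6 arrays. Lymphocyte markers, 9 of 12 listed, summed to 1806 and 1970 on the carrier arrays labelled Ccl3-/-, where Il1r2 was highest, against 2522 to 3574 on the other 6. The groups of these sums did not overlap there, and their part in the results on Il1r2, Il1r1 and Il1rn was not tested.

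**Figure D4:**
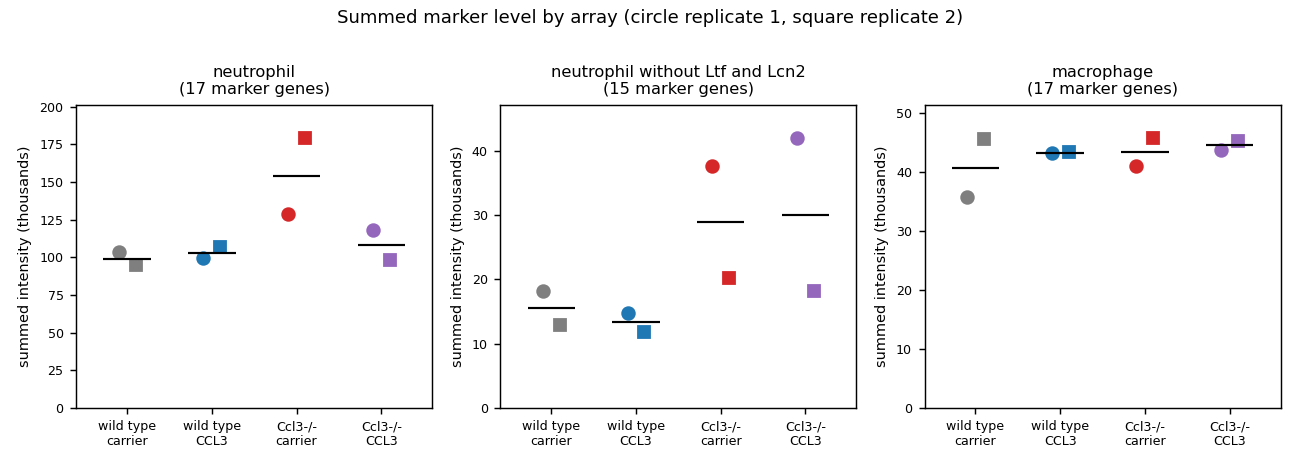
Summed intensity (y axis, from 0, in units of 1000) of neutrophil markers, of neutrophil markers without Ltf and Lcn2, and of macrophage markers, by group (x axis), with points for arrays and bars for group means. The full neutrophil sum is highest on the carrier arrays labelled Ccl3-/-, at 128500 and 179500, while without Ltf and Lcn2 the carrier and CCL3 arrays with that label overlap.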

How the data were processed

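The authors deposited a linear intensity for each probe set on each array. Their software and scaling method are unstated in the labels. Means after trimming 2% at each end differed by at most 0.00834%, so no further normalization was applied. Of 12488 probe sets, 66 controls were left out; 10855 had 1 gene symbol, updated by gene record to the GRCm38.p6 table where matched.

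limma (version 3.58.1, R 4.3.3) fitted log2(value + 102.3), the 20th percentile as pseudocount, for the 4 groups together with 4 residual degrees of freedom, an intensity trend and Benjamini-Hochberg adjustment over 8150 probe sets. Genotypes were compared within each injection and injections within each genotype, with the interaction. The members and lists were chosen with earlier results of these data known. By rule, 10 pathway genes were named wherever on the array, with up to 2 more in each direction per comparison by smallest p, and the 5 genes most correlated with each tested member. Alternatives were other scalings, pseudocounts, filters, no trend, a replicate block, only the groups compared, and each array left out; a filter on the 6 arrays outside the carrier group labelled Ccl3-/- and the marker sums without Ltf and Lcn2 or without Sprr1b were added after seeing the data. The fit was tested on simulated data.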

Additional observations from a re-analysis of the deposited data

How the results depend on the processing

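Under the 19 other settings run, 0 values of the interleukin 1 genes reached an adjusted p of 0.05 in limma, and of 196 member values under the settings that keep all arrays, 194 kept their sign. The exceptions were Il1r1 under quantile normalization, at -0.01 for genotype after CCL3 and 0.06 for CCL3 in the wild type. Leaving out each array in turn, Il1r1 ran from -0.36 to 0.42 for genotype after CCL3 and from -0.17 to 0.04 for CCL3 in the wild type, Il1rn from -0.15 to 0.65 for genotype after CCL3, and the f_at probe set of Il1r2 from -0.15 to 0.40 for CCL3 in the wild type. Il1rn could not be fitted without either carrier array labelled Ccl3-/-, since it then missed the filter, as it did with the filter at the 60th percentile and the filter on the 6 arrays outside that group.

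Counts depended on the filter. With a filter at the 60th percentile, Il1rn, Il1r1 and the first probe set of Il1r2 were not tested. The 1 member probe set left, the f_at probe set of Il1r2, was higher at an unadjusted p under 0.05 for genotype after carrier. For CCL3 minus carrier under the Ccl3-/- label, it was lower at that p. Under the main filter, 4 member probe sets were tested. The counts at that p were then 2 and 3, each with Il1rn, which the group where it was high chose. The shares of all probe sets there were 5.03% and 2.12%. With the filter at the 60th percentile, 11 target probe sets had a higher mean for genotype after carrier, 2 of them at that p. For CCL3 minus carrier under the Ccl3-/- label, 11 had a lower mean. Without a filter, 30 target probe sets had a lower mean for CCL3 minus carrier under the Ccl3-/- label, in place of 19 of 21. Each filter changes how many target probe sets are tested, so these counts differ in their totals too. Shares of all probe sets were not counted under these filters. The target counts under them therefore cannot be read as larger or smaller results than those of the main filter. With the added filter on 6 arrays, which Il1rn missed, 1 of 3 member probe sets was higher after carrier at that p. Under the main filter 5.03% of all probe sets were. In the fit of only the groups compared, 2 targets in place of 5 were higher after carrier, and genotype after CCL3 gave 1 call over all probe sets. Myd88 for genotype after carrier was 0.00 under quantile normalization and 0.04 with one median.

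Leaving out each array, calls over all probe sets ran from 0 to 113 for genotype after carrier and from 0 to 74 for CCL3 in the wild type, both highest without wild-type carrier replicate 2, and from 0 to 1 for genotype after CCL3 and for CCL3 under the Ccl3-/- label. For genotype after carrier, Il1r1 ran from 0.41 to 0.61 and the probe sets of Il1r2 from 0.23 to 0.48 and from 0.87 to 1.43. Targets higher at an unadjusted p under 0.05 after carrier ran from 1, without wild-type carrier replicate 2, to 7, with 2 without carrier replicate 2 labelled Ccl3-/- and 3 without CCL3 replicate 2 of that label. Targets lower under the Ccl3-/- label ran from 5, without its carrier replicate 1, to 10. For genotype after carrier, the Nfkbia probe sets ran from -0.21 to 1.21 and from -0.19 to 0.55, and Myd88 from -0.26 to 0.24. Mapkapk2 for CCL3 in the wild type ran from -0.02 to 0.39 and Map2k3 for the interaction from -0.02 to 0.34, each by 1 probe set. The cause of these changes was not tested.

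Arrays with the same replicate number did not deviate together, with correlations from -0.16 to 0.18 over pairs of groups, so the number was not taken as a pairing. With it as a block, genotype after carrier gave 1 call in place of 0. With 2 arrays a group, their number limits the precision.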
